A study of Drosophila melanogaster with 36 samples.

Results

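Old astrocyte-like glia of the fly brain were set against the whole brains they came from. The data are 6 of the 36 libraries of the series: 3 of GFP-positive cells sorted from brains of 70-day-old Drosophila melanogaster females, and 3 of the unsorted cell suspension, called whole brain, from brains of the same driver line and age. The members were chosen by their labels alone (driver line 86E01, day 70), and same-numbered sorted and whole brain libraries came from the same brains. In these flies GMR86E01-GAL4 drove a GFP reporter, and the sort took living GFP-positive cells, whatever their type. Each library came from pooled brains, dissociated by enzyme in the presence of actinomycin D, and dead cells taking up DAPI were gated out of the sorted cells. The rest of the series has the same design at day 5 and in the lines GMR56F03 and GMR10E12, which label predominantly ensheathing glia. The gate for GFP was set on brain tissue without GFP, and the whole brain libraries passed no gate.

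Astrocyte-like glia send fine processes into the synaptic neuropil, where they take up glutamate and GABA, buffer ions, supply fuel to neurons and clear debris. They depend on the FGF receptor Heartless for their growth, and the homeodomain proteins Repo and Prospero mark their fate. Ensheathing glia line the borders of the neuropil, cortex glia wrap neuronal cell bodies, and surface glia form the blood-brain barrier. In bulk libraries such as these, fewer cells of a type and less RNA per cell cannot be told apart.

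Sorted libraries held 5111542.0, 10953086.0 and 17060052.0 counts on genes (replicates 1, 2 and 3), and whole brain libraries between 5845667.0 and 7287814.0. At these depths 3 counts, taken as the smallest readable level, stood for 0.176 to 0.587 CPM (counts scaled to a library of 1e6) in sorted libraries and 0.412 to 0.513 CPM in whole brain, which covers counting error only. Genes of the mitochondrial genome held 7.72% to 12.3% of the counts of sorted libraries and 5.95% to 6.70% of whole brain. Over all genes, sorted replicate 1 correlated with sorted replicates 2 and 3 at 0.887 and 0.892 (Pearson, log2 (CPM + 1)), below the 0.939 between replicates 2 and 3, and whole brains with each other at 0.956 to 0.966. 3 libraries stood apart in ways that touch the results: sorted replicate 1 had the lowest levels of eye genes, whole brain replicate 2 the highest photoreceptor signal, and whole brain replicate 3 the highest yolk protein and fat body signal. Calls that depend on them are given with and without them.

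Markers of astrocyte-like glia were higher in the sorted cells. Of the 8 markers listed for astrocyte-like glia, 7 were higher in sorted cells, and the 19 called of 24 neuron markers were all lower, where 17.3% of all genes tested were higher and 14.7% lower at an adjusted p below 0.05. The leucine-rich repeat gene alrm (FBgn0039332, chromosome 3R from 25381065 to 25382781 of dm6), whose promoter is a standard astrocyte tool, had 2089, 1239 and 1975 CPM in the 3 sorted libraries, against 273, 177 and 183 CPM in whole brain. The lowest sorted library stood above every whole brain (log2 fold change 3.08, SE 0.27, adjusted p = 0.000437 by the edgeR quasi-likelihood test, adjusted over all 8893 genes tested after Benjamini and Hochberg). The GABA transporter gene Gat (FBgn0039915, chromosome 4 from 629691 to 635350) had 2612, 1247 and 1876 CPM in sorted cells, against 219, 128 and 135 CPM in whole brain, again with no overlap (log2 fold change 3.59, SE 0.34, adjusted p = 0.000503). The glutamate transporter gene Eaat1 had 1363, 878 and 1120.3 CPM in sorted cells and 235, 174 and 202 CPM in whole brain (log2 fold change 2.48, SE 0.20, adjusted p = 0.000391). The glutamine synthetase gene Gs2 had a log2 fold change of 2.48, the lipid phosphatase gene wun2 of 3.10 and the TRPA channel gene wtrw of 1.56. Summed over the list, these markers came to 15832, 9644 and 12588 CPM in sorted cells and 2537, 1831 and 1854 CPM in whole brain. The octopamine-tyramine receptor gene Oct-TyrR was the marker that did not pass: it had 40.9, 17.3 and 21.7 CPM in sorted cells, against 57.2, 41.9 and 54.0 CPM in whole brain, and read lower in sorted cells with an adjusted p of 0.0755. Its adjusted p was 0.0274 with the replicate number as a block, 0.00469 without sorted replicate 1, and 0.0430 with total counts as the scale.

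Most genes shared by glia were also higher. The pan-glial transcription factor gene repo (FBgn0011701, chromosome 3R from 18236192 to 18239602, with exons that overlap CG7156 on the opposite strand) had 263, 174 and 221 CPM in sorted cells, against 43.0, 43.8 and 48.1 CPM in whole brain (log2 fold change 2.30, SE 0.19, adjusted p = 0.000391). Of 7 pan-glial markers tested, 5 were higher, with a median log2 fold change of 1.49 over the list. The summed level of the list overlapped, at 5799, 6812 and 4554 CPM in sorted cells and 8564, 4923 and 2558 CPM in whole brain. Among the higher genes were the ETS factor gene pnt (2.16), the immunoglobulin gene bdl (2.41) and the sodium pump subunit gene nrv2 (1.49). Of the markers of other glia, 5 of 7 listed for ensheathing glia (median 0.95) and 3 of 4 for cortex glia (median 1.56) were higher. For surface glia the count was 2 of 8 (median 0.89), near the 17.3% of all genes. The TNF ligand gene egr (2.33), the sodium-calcium exchanger gene zyd of cortex glia (1.67) and the barrier receptor gene moody (1.94) passed without each library in turn. This last count was 4 without sorted replicate 1 and with the replicate block, and 1 without any of the other 5 libraries. The presence of other glial classes among the sorted cells was not tested.

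**Figure D1:**
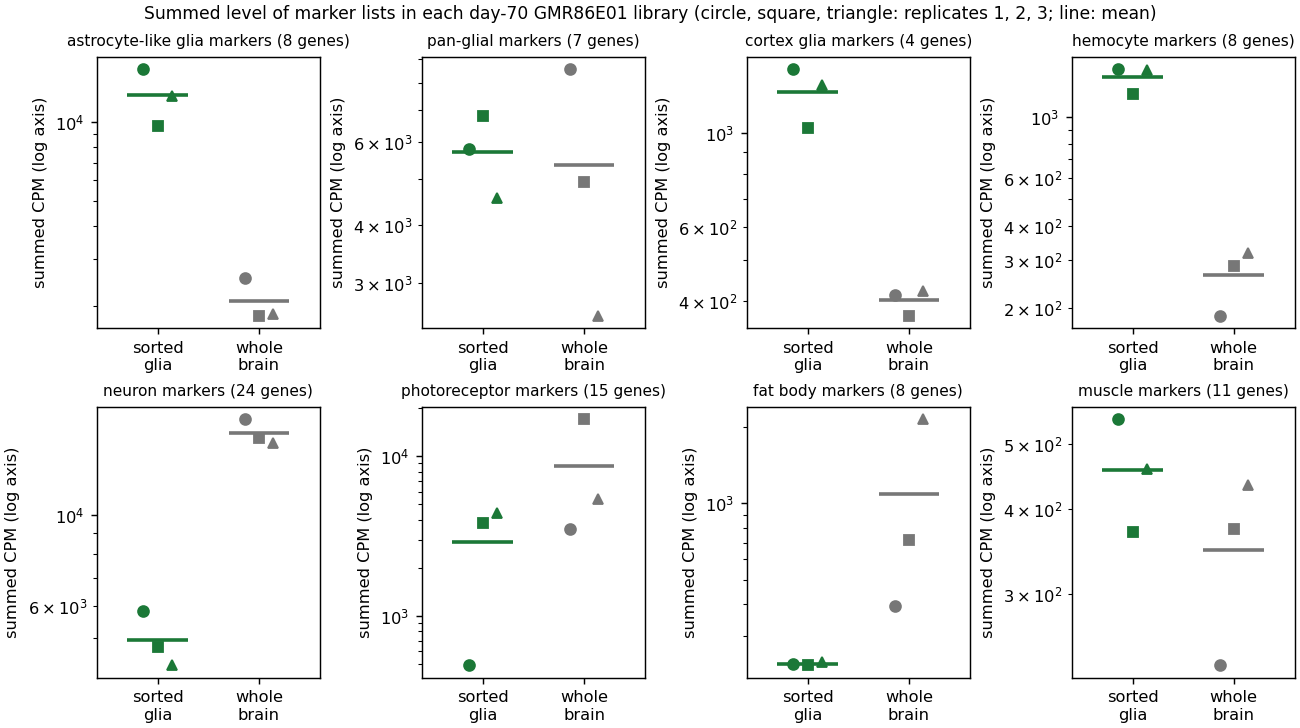
Summed level of 8 marker lists in each library, in CPM on a log axis, with sorted old astrocyte-like glia left of whole brain and 1 point for each of the 3 replicates. Astrocyte-like and hemocyte markers sit above whole brain in every sorted library and neuron markers below it, while photoreceptor markers overlap between the groups.

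Neuronal messages were lower but still present in the sorted libraries. The neuronal RNA-binding protein gene elav (FBgn0260400, chromosome X from 509235 to 523226, whose exons are shared in part with lncRNA:enrr, and with arg on the other strand) had 70.0, 71.7 and 75.1 CPM in sorted cells, against 393, 293 and 297 CPM in whole brain (log2 fold change -2.16, SE 0.17, adjusted p = 0.000368). All 3 sorted libraries stood close to each other and far under the lowest whole brain. The 24 neuron markers had a median log2 fold change of -1.57, 19 of them were lower, and none was at 0 in the sorted libraries. Their summed level was 5826, 4758 and 4294 CPM in sorted cells and 17122, 15361 and 14982 CPM in whole brain. The calcium sensor gene Syt1 (-2.09), the sodium channel gene para (-2.09), the vesicular acetylcholine transporter gene VAChT (-2.30) and the active zone gene brp (-1.60) fell in every leave-one-out fit. The dopamine transporter gene DAT (-0.86, adjusted p = 0.356) and the GABA synthesis gene Gad1 (-0.84, adjusted p = 0.115) did not pass, although Gad1 did with the replicate block (adjusted p = 0.0387).

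Markers of blood cells moved with the glial markers. Of 8 hemocyte markers, 7 were higher in sorted cells, and each kept its call without any 1 of the 6 libraries. Their summed level was 1494, 1216 and 1490.2 CPM in sorted cells and 188, 287 and 318 CPM in whole brain, and none was at 0 in all libraries of a group. The clotting protein gene Hml (FBgn0029167, chromosome 3L from 13846054 to 13860001) had 353, 346 and 563 CPM in sorted cells, against 11.5, 33.4 and 35.5 CPM in whole brain (log2 fold change 3.99, SE 0.46, adjusted p = 0.000831). Every sorted library was far above every whole brain. The scavenger and phagocytosis receptor genes eater (4.80), NimC1 (3.87) and Sr-CI (4.02) and the GATA factor gene srp (3.65) were higher as well. The peroxidasin gene Pxn, which overlaps CG16986 on the opposite strand, did not pass (adjusted p = 0.859). It had 174, 89.6 and 92.0 CPM in sorted cells and 110.2, 122 and 146 CPM in whole brain. The part of blood cells in the groups described here was not tested, and these marker sums stand beside each group they moved with.

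Markers of the eye, fat body and muscle varied between libraries. Of 14 photoreceptor markers tested, 7 were lower in sorted cells (median log2 fold change -2.74), where 14.7% of all genes tested were lower. The count was 11 without whole brain replicate 1, 4 without whole brain replicate 2 and 8 with the replicate block. Their sums were 490.5, 3832 and 4435 CPM in sorted cells and 3496, 17075 and 5349 CPM in whole brain. The groups overlapped, but sorted cells were the lower in each pair from the same brains. The rhodopsin chaperone gene ninaA was at 0 in all 6 libraries. Of 4 fat body markers tested, 3 were lower, all yolk protein genes, and 1 without sorted replicate 3. Fat body sums were 232, 229.7 and 235 CPM in sorted cells and 394, 719 and 2149 CPM in whole brain, with no overlap. Fbp1, Fbp2, Lsp2 and to were at 0 in the sorted libraries. Of the 8 fat body markers listed, 2 were at 0 in all whole brain libraries as well. Of 9 muscle markers tested, 1 was higher and 2 were lower (1 without whole brain replicate 3, 4 without sorted replicate 1 and 5 without whole brain replicate 1), with sums of 544, 370.2 and 459 CPM in sorted cells and 235, 374 and 435 CPM in whole brain. The counts from all 6 libraries were near the 17.3% higher and 14.7% lower of all genes tested.

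Across all genes, 1542 of 8893 were higher in sorted cells (17.3% of those tested) and 1310 were lower (14.7%), at an adjusted p below 0.05. These shares are the background for the list counts of this comparison that follow. The median log2 fold change of all genes was 0.0006. The CPM of the groups did not overlap for 4349 genes (48.9%), and 2815 of the 2852 called genes were among these. Without each of the 6 libraries in turn, 1647 genes kept their call every time, and between 1885 genes (without whole brain replicate 1) and 3578 were called. With total counts in place of TMM as the scale, the median of all genes shifted by -0.146 and the split became 1320 higher and 1629 lower. No list described here changed the sign of its median with that scale, other than the chaperones and the nuclear genes of oxidative phosphorylation, whose medians were near 0 on either scale.

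Several genes for clearing transmitters from the synapse were higher. Of 8 genes of glutamate and GABA uptake and recycling, 4 were higher (Eaat1, Gat, Gs2 and the GABA transaminase gene Gabat) and 1 was lower, with a median log2 fold change of 0.68. Of all genes tested, 17.3% were higher and 14.7% lower, and the lower count was near that share. The Gabat call (log2 fold change 0.55) held in only 1 of 6 fits that each left out a library, with adjusted p of 0.0604 without sorted replicate 1, 0.106 without sorted replicate 3, 0.0991 without whole brain replicate 1, 0.141 without whole brain replicate 2, 0.101 without whole brain replicate 3. The glutamate dehydrogenase gene Gdh, which overlaps CG5854 on the opposite strand, had 256, 171 and 184 CPM in sorted cells, against 348, 404 and 352 CPM in whole brain (log2 fold change -0.84, SE 0.18, adjusted p = 0.0109). Its groups did not overlap, but its adjusted p was 0.0516 without whole brain replicate 2. Values for the second transporter and the second synthetase were -0.42 for Eaat2 and -0.39 for Gs1, with adjusted p of 0.163 and 0.0589. Of 5 genes of amine and histamine recycling, 2 were higher. The gene e, whose enzyme couples histamine and dopamine to beta-alanine, had 547, 408 and 521 CPM in sorted cells, against 107, 66.5 and 64.2 CPM in whole brain (log2 fold change 2.65, SE 0.25, adjusted p = 0.000492). AANAT1, which acetylates dopamine and serotonin and overlaps 2 genes on the opposite strand, had 145, 126 and 133 CPM in sorted cells, against 69.0, 57.7 and 54.1 CPM in whole brain (log2 fold change 1.18, SE 0.16, adjusted p = 0.00160).

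Most of the receptor genes for modulators that were called were lower. Of 7 receptor and channel genes that have been studied in astrocytes, 1 was higher (wtrw) and 4 were lower. Of all genes tested, 17.3% were higher and 14.7% lower. The GABA-gated channel gene Rdl had 148, 99.0 and 68.5 CPM in sorted cells, against 998, 735 and 569.9 CPM in whole brain (log2 fold change -2.86, SE 0.33, adjusted p = 0.000831), and the GABA-B receptor genes GABA-B-R1 (-2.79) and GABA-B-R2 (-1.21) also fell in every leave-one-out fit. These genes are known from neurons as well, and the neuron marker sums given above moved with them. The dopamine receptor gene Dop1R1 (-0.91) had an adjusted p of 0.0143, which became 0.0632 without sorted replicate 3, 0.0551 without whole brain replicate 1, 0.0537 without whole brain replicate 3. AdoR, the adenosine receptor gene, had 9.95, 13.2 and 14.4 CPM in sorted cells and 5.98, 1.08 and 3.45 CPM in whole brain (adjusted p = 0.0576). It was called higher by the DESeq2 Wald test (adjusted p = 0.0161). In edgeR it was called higher in 1 fit over all libraries (adjusted p = 0.0155), with thinned counts (0.0494) and without whole brain replicate 1 (0.0481).

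The FGF receptor gene was higher and 1 of its ligand genes was lower. Of 12 genes of FGF signaling and glial fate, 7 were higher and 2 lower, with a median of 1.53. The FGF receptor gene htl (FBgn0010389, chromosome 3R from 18045216 to 18052984) had 243, 201 and 242 CPM in sorted cells, against 29.9, 31.9 and 23.3 CPM in whole brain (log2 fold change 3.03, SE 0.19, adjusted p = 0.000292). The gene of its adaptor, stumps, had a log2 fold change of 1.98, the receptor gene N of 2.23 and the leucine-rich repeat gene Lapsyn of 2.56. The FGF ligand gene ths had 20.3, 42.3 and 20.3 CPM in sorted cells, against 105, 86.2 and 83.4 CPM in whole brain (log2 fold change -1.71, SE 0.32, adjusted p = 0.00643), and the second ligand gene, pyr, did not pass (1.08, adjusted p = 0.295) but read 1.54 (adjusted p = 0.0333) without sorted replicate 1. The fate gene pros (FBgn0004595, chromosome 3R from 11328480 to 11407627, with exons that overlap lncRNA:CR46008 on the opposite strand) had 1345, 777 and 742 CPM in sorted cells, against 2793, 2023 and 1589.8 CPM in whole brain (log2 fold change -1.15, SE 0.29, adjusted p = 0.0195). All 3 sorted libraries were under all 3 whole brains, although its adjusted p was 0.0699 without sorted replicate 2, 0.0796 without sorted replicate 3, 0.0691 without whole brain replicate 1, 0.0532 without whole brain replicate 2. Neurons express pros too.

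Ion transport genes differed by isoform. Of 17 genes tested, 10 were higher and 3 were lower (median 1.49). Among the beta subunits of the sodium pump, nrv1 (3.23) and nrv2 (1.49) were higher, whereas nrv3, a neuronal subunit, had 442, 443 and 398 CPM in sorted cells, against 1939.8, 1888 and 1838 CPM in whole brain (log2 fold change -2.13, SE 0.11, adjusted p = 0.000292). The alpha subunit gene Atpalpha had 3925, 2697 and 3191 CPM in sorted cells and 3083, 2758 and 2810.3 CPM in whole brain and did not pass (adjusted p = 0.369). Gap junctions showed the same division. The innexin genes ogre (2.20), Inx2 (1.85) and Inx3 (2.65) were higher and shakB, the innexin of neuronal electrical synapses, was lower (-1.41). The inward rectifier genes Irk2 (1.92) and Irk3 (1.61) and the cation chloride cotransporter gene Ncc69 (1.36) were higher. The potassium chloride cotransporter gene kcc was lower (-0.74). The aquaporin gene Prip (3.42) had an adjusted p of 0.0198, which became 0.0642 without whole brain replicate 3.

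Of 15 engulfment genes, 9 were higher and none was lower, with a median log2 fold change of 0.95. Under total counts 2 read as lower. The receptor gene drpr, which lets glia recognise debris, had 307, 258 and 231 CPM in sorted cells, against 135, 136 and 146 CPM in whole brain (log2 fold change 0.95, SE 0.15, adjusted p = 0.00270). The genes of its adaptor ced-6 (2.16) and of the Rac regulator mbc (2.14), the GTPase gene Rac2 (2.70), the receptor tyrosine kinase gene Pvr (2.53) and the protease gene Mmp1 (2.08) rose in every leave-one-out fit. Hemocytes express several of these genes, and the scavenger receptor gene crq (2.00) is on the hemocyte list as well. Hemocyte marker sums were above whole brain in every sorted library.

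Most genes of glycolysis were higher. Of 19 genes of sugar transport, glycolysis and lactate, 13 were higher and 3 were lower (median 1.08), and 12 of the higher genes kept their call without each library. The trehalase gene Treh, which splits the main blood sugar of the fly and overlaps Rbpn-5 on the opposite strand, had 4210.5, 2577 and 3011 CPM in sorted cells, against 643, 502 and 503 CPM in whole brain (log2 fold change 2.59, SE 0.21, adjusted p = 0.000391). The enzymes that kept their call ran along the pathway: Pgi (0.90), Pfk (1.08), Ald1 (0.99), Tpi (1.70), Gapdh1 (1.83), Gapdh2 (1.16), Pgk (1.19), Pglym78 (1.23), Eno (1.28) and PyK (0.95), with the lactate dehydrogenase gene Ldh at 0.87. The call of Ldh was lost in 1 fit over all libraries (adjusted p = 0.119). The hexokinase gene Hex-A (1.30, adjusted p = 0.0226) lost its call in 3 fits, with adjusted p of 0.0782 without whole brain replicate 1, 0.0788 without whole brain replicate 2, 0.0766 without whole brain replicate 3. The glucose transporter gene Glut1 was lower (-1.24), as was Bsg (-0.96), a partner of monocarboxylate transporters, whose adjusted p was 0.0620 without whole brain replicate 1, 0.0520 without whole brain replicate 2.

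Lipid genes were mixed. Of 33 tested of 41 listed, 15 were higher and 3 lower, with a median of 0.51. The lipocalin gene Karl (FBgn0030334, chromosome X from 11787381 to 11792253, overlapping asRNA:CR44962) had 98.1, 87.8 and 147 CPM in sorted cells, against 2.71, 9.26 and 8.61 CPM in whole brain (log2 fold change 4.03, SE 0.48, adjusted p = 0.000946). GLaz, a glial relative of apolipoprotein D, had 25.8, 94.0 and 74.5 CPM in sorted cells, against 12.7, 8.66 and 9.05 CPM in whole brain (log2 fold change 2.70, SE 0.48, adjusted p = 0.00488). Sorted and whole brain libraries did not overlap for either lipocalin. The fatty acid binding protein gene fabp (3.40), the fatty acid transport genes Fatp1 (2.80; adjusted p 0.0598 without whole brain replicate 1) and Fatp3 (3.15), the perilipin gene Lsd-2 (1.96), the lipase gene bmm (1.65), and the genes of mitochondrial fatty acid import, whd (1.97) and CPT2 (2.45), were higher. So were the sterol binding genes Npc2a (1.95) and Npc2b (1.87). The lipoprotein receptor genes diverged, with LpR2 higher (1.53) and LpR1 lower (-1.38). Of the fatty acid synthesis genes, FASN1 was lower (-0.86, adjusted p = 0.0138, and 0.0522 without sorted replicate 3) and ACC did not pass (0.20, adjusted p = 0.288).

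Glutathione S-transferases, which conjugate glutathione to reactive compounds, were mostly higher. Of 30 tested, 19 were higher and 2 were lower (median 2.29), 12 of the higher and none of the lower kept their call without each library, and leaving out a library gave between 13 and 21 higher genes. Their summed level was 2532, 4369.7 and 3800.4 CPM in sorted cells and 620.4, 710.0 and 677 CPM in whole brain. GstD1 had 672, 1066 and 1019 CPM in sorted cells, against 122, 162 and 131 CPM in whole brain (log2 fold change 2.75, SE 0.23, adjusted p = 0.000391). GstE12, which overlaps CG3894 on the opposite strand, had 512, 1167 and 944 CPM in sorted cells, against 94.0, 124 and 109 CPM in whole brain (log2 fold change 3.02, SE 0.31, adjusted p = 0.000629). The lowest sorted library of each gene was above the highest whole brain. These genes lie in clusters of close copies, so each gene's share of the reads is uncertain.

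Part of the immune genes were higher. Of 23 innate immunity genes tested, 9 were higher and none was lower (median 1.75), and 15 were higher without sorted replicate 1. The NF-kappaB gene Rel (2.52), the receptor genes PGRP-LC (2.53) and PGRP-LE (1.75), the Toll ligand gene spz (2.01), the adaptor gene Myd88 (2.52) and the NF-kappaB gene dl (1.41) kept their call without each library. No antimicrobial peptide gene passed in the fit of all 6 libraries without the block. Drs had 104, 127 and 242 CPM in sorted cells and 2.42, 9.38 and 207 CPM in whole brain (adjusted p = 0.553). Without whole brain replicate 3 its log2 fold change was 4.74 (adjusted p = 0.00755). The fits without 1 library also called AttD (adjusted p = 0.0357, and 0.00315 with the replicate block) and CecA2 (adjusted p = 0.0281) higher without sorted replicate 1 and AttC (adjusted p = 0.0254) lower without whole brain replicate 2. DptB had 0, 1.46 and 124 CPM in sorted cells and 0, 0.722 and 16.8 CPM in whole brain (adjusted p = 0.355, and 0.0307 with the replicate block). Replicate 3 was the highest library of each group for Drs and DptB. Hemocytes express immune genes too. Their marker sums were 1494, 1216 and 1490 CPM in sorted replicates 1, 2 and 3, where the immune list summed to 782, 1236 and 1556 CPM. In whole brain the immune list summed to 350, 387 and 896 CPM, overlapping the sorted libraries. The part of blood cells in these values was not tested.

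Stress genes had a median near 0 (0.12): of 25, 9 were higher and 2 were lower, and neither lower call held without each library. Hsp70Bb had 532, 329.6 and 469.6 CPM in sorted cells, against 58.7, 37.9 and 39.3 CPM in whole brain (log2 fold change 3.31, SE 0.26, adjusted p = 0.000391), and Hsp70Ba had a log2 fold change of 2.46. The Hsp70 genes are nearly identical copies, so their shares of reads are uncertain. The catalase gene Cat (1.67), the superoxide dismutase gene Sod1 (0.80), the Nrf2 relative cnc (1.04) and the stress factor gene Xrp1 (1.11) were higher. Of 14 genes of cell death and TNF-JNK signaling, 3 were higher, near the 17.3% of all genes tested, and the list median was 0.26. They were the caspase inhibitor gene Diap1 (1.09), egr and the TNF receptor gene wgn (2.32), and 5 were higher without sorted replicate 1. The clock genes were higher for the most part: 5 of 9, with tim (2.45), vri (2.06), cry (2.13) and Clk (1.42) higher in every leave-one-out fit and Pdp1 lower (-1.11). The exons of tim overlap lncRNA:CR46495, and per did not pass (-0.37, adjusted p = 0.203).

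Most basement membrane genes were higher. Of 13 tested, 10 were higher and 1 was lower (Mmp2, -1.14), with a median of 2.21. The list summed to 3217, 2836 and 3399 CPM in sorted cells and 713, 838 and 832 CPM in whole brain. The collagen IV gene Col4a1 had 441, 532 and 573 CPM in sorted cells, against 69.6, 81.6 and 86.6 CPM in whole brain (log2 fold change 2.72, SE 0.17, adjusted p = 0.000292), with no overlap. The second collagen chain gene vkg (2.21), the laminin genes LanA (3.50), LanB1 (2.64) and LanB2 (2.48), and Ppn (3.52) and SPARC (2.44) were higher in every leave-one-out fit. Perlecan, trol, was higher by 0.80, with an adjusted p of 0.0717 without whole brain replicate 2, 0.0877 without whole brain replicate 3. Hemocytes make these proteins, and the hemocyte marker sums stood above whole brain in the same libraries.

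The translation machinery was higher in its cytoplasmic part. Of 86 cytoplasmic ribosomal protein genes tested, 80 were higher and none was lower, 78 of them without each library, with log2 fold changes from 0.07 to 1.50 and a median of 1.10. They took 89828, 91031 and 92967 CPM of sorted libraries and 48108, 43725 and 41184 CPM of whole brain. Mitochondrial ribosomal proteins did not follow: 1 of 72 was higher and none was lower (median -0.21). Of 13 protein genes of the mitochondrial genome, 8 were higher and 1 was lower (median 0.73), and the higher count was 5, 5 and 4 without whole brain replicates 1, 2 and 3. Nuclear genes of oxidative phosphorylation stood near 0, with 2 higher and 2 lower of 64 and a median of 0.12. The higher count was 6 without sorted replicate 1 and 0 without sorted replicate 3 or any 1 of the whole brains. On the scale of total counts none was higher and 3 were lower.

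**Figure D2:**
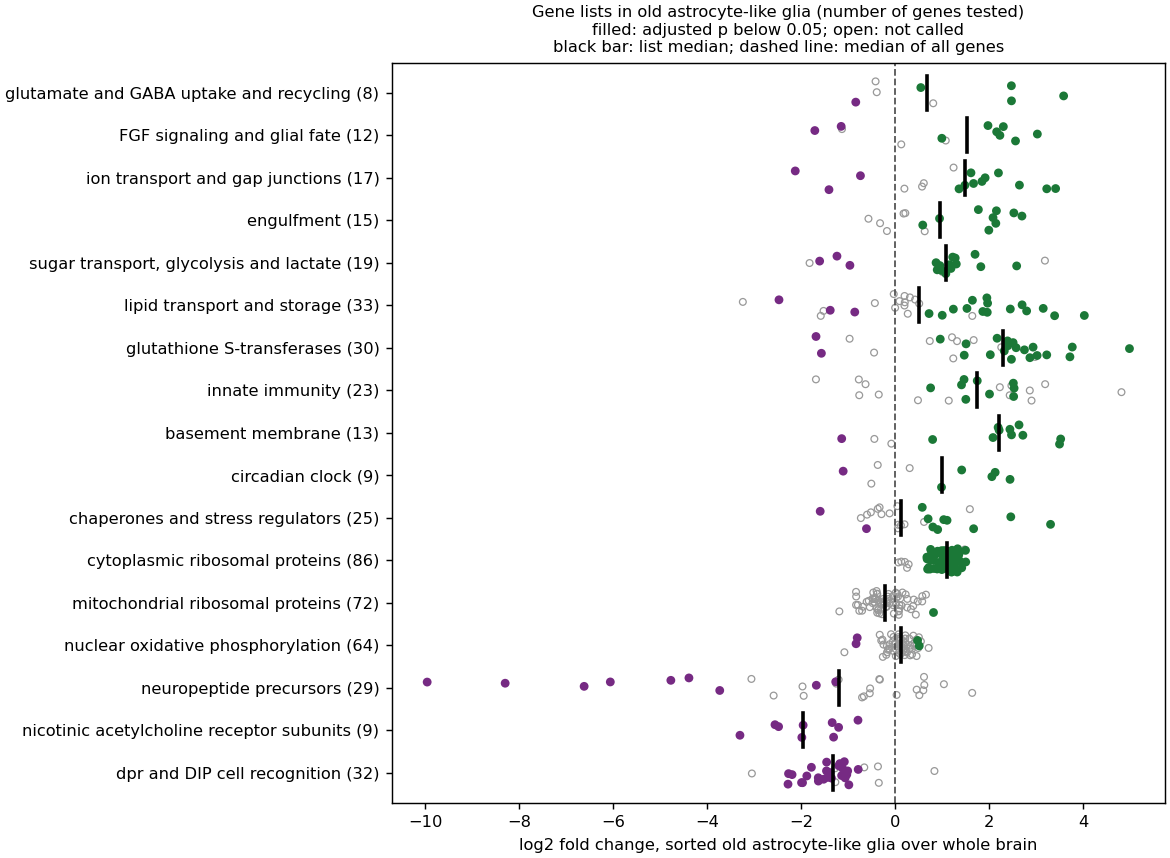
Log2 fold change (sorted old astrocyte-like glia over whole brain) of each tested member of 17 gene lists. Filled points passed an adjusted p below 0.05, open points did not, and bars mark list medians. Cytoplasmic ribosomal protein genes form a narrow band above 0, nicotinic receptor subunits lie wholly below it, and the lists of lipid, immune and stress genes spread across it.

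Neuronal gene families outside the marker list fell together. All 9 tested subunits of the nicotinic acetylcholine receptor, the main excitatory receptor of the fly brain, were lower (median -1.96), 8 of them without each library. They summed to 933, 654 and 675 CPM in sorted cells and 3297, 2574 and 2529.8 CPM in whole brain. The subunit gene nAChRalpha5 had 46.7, 27.7 and 51.0 CPM in sorted cells, against 543, 382 and 329 CPM in whole brain (log2 fold change -3.30, SE 0.30, adjusted p = 0.000482). The smallest difference was that of nAChRalpha2 (-0.79, adjusted p = 0.0216), which held in 1 of the 6 fits (adjusted p 0.0666 without sorted replicate 2, 0.0632 without sorted replicate 3, 0.0813 without whole brain replicate 1, 0.0604 without whole brain replicate 2, 0.0723 without whole brain replicate 3). Of 32 dpr and DIP genes, whose immunoglobulin proteins pair cells at synapses, 25 were lower and none was higher (median -1.32), 19 of them without each library.

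Several neuropeptide genes were among the largest decreases. Of 29 precursor genes tested, 9 were lower and none was higher (median -1.20), while 15 were lower without sorted replicate 1 and 12 were lower and 1 was higher with the replicate block. Hug (FBgn0028374, chromosome 3R from 12526188 to 12529076), made by a small set of feeding neurons, had 0.191, 0.343 and 0 CPM in sorted cells, against 129.7, 105 and 257 CPM in whole brain. Its sorted libraries held 5 counts in all, against 3573 in whole brain, so no fitted fold is given. Ilp2, an insulin-like peptide of the brain's neurosecretory cells, had 11.7, 5.15 and 2.67 CPM in sorted cells, against 417, 238 and 579 CPM in whole brain (log2 fold change -6.06, SE 0.62, adjusted p = 0.000620). Ilp3 had 2.10, 1.03 and 0.668 CPM in sorted cells, against 134, 62.9 and 142 CPM in whole brain (log2 fold change -6.62, SE 0.53, adjusted p = 0.000391). Ilp5 from the same cells was lower by a log2 fold change of -4.39 (adjusted p = 0.0130, and 0.0518 without sorted replicate 2). All insulin-like peptide values in sorted cells lay under those in whole brain. Corazonin, Crz, had 10.3, 9.53 and 22.5 CPM in sorted cells, against 223, 761 and 211 CPM in whole brain (log2 fold change -4.77, SE 0.66, adjusted p = 0.00174), and Mip had 34.2, 26.3 and 36.7 CPM in sorted cells, against 184, 234 and 893 CPM in whole brain (log2 fold change -3.73, SE 0.63, adjusted p = 0.00385).

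Other peptides appeared strongly in single sorted libraries. Dh31, a diuretic hormone gene, had 1822, 103 and 111 CPM in sorted cells and 397, 357 and 591 CPM in whole brain. SIFa had 313, 0.773 and 0 CPM in sorted cells and 23.3, 32.1 and 44.2 CPM in whole brain. In both cases sorted replicate 1 alone was above every whole brain and the other 2 sorted libraries were below. The clock neuron peptide gene Pdf had 14.7, 213 and 2.06 CPM in sorted cells, against 37.3, 78.5 and 52.8 CPM in whole brain, and here sorted replicate 2 alone was high. None of these passed (adjusted p = 0.705 for Dh31, 0.576 for SIFa and 0.821 for Pdf). Without sorted replicate 1 the log2 fold change was -2.04 (adjusted p = 0.00115) for Dh31 and -6.57 (adjusted p = 0.00309) for SIFa, and without sorted replicate 2 it was -2.79 (adjusted p = 0.0535) for Pdf. These genes were chosen after their values were seen.

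Among called genes without overlap and with at least 50 CPM in the higher group, the 15 lowest fold changes were those of Hug, CG12239, Ilp3, Ilp2, lncRNA:CR44832, Crz, Ilp5, CG2233, trpl, ninaC, Mip, Arr1, Yp1, Yp3 and chp. CG12239 (FBgn0029810, chromosome X from 5792140 to 5794543) had 0.574, 9.62 and 11.8 CPM in sorted cells, against 2156, 1579 and 2052 CPM in whole brain (log2 fold change -7.93, SE 0.85, adjusted p = 0.000651). The long noncoding RNA lncRNA:CR44832 had 12.8, 19.1 and 14.3 CPM in sorted cells, against 510.3, 427 and 399 CPM in whole brain (log2 fold change -4.83, SE 0.22, adjusted p = 0.000271). Both were low in all 3 sorted libraries. Phototransduction genes made up 4 of the 15: the light channel gene trpl (-3.83), the myosin kinase gene ninaC (-3.74), the arrestin gene Arr1 (-3.68) and the microvillus adhesion gene chp (-3.50, adjusted p = 0.0290, and 0.0522 without sorted replicate 2, 0.0845 without sorted replicate 3, 0.109 without whole brain replicate 2). Arr1 had 23.5, 153 and 99.2 CPM in sorted cells, against 667, 2224 and 710.0 CPM in whole brain. The yolk protein genes Yp1 (-3.68, adjusted p 0.0568 without sorted replicate 3) and Yp3 (-3.54) rested on uneven whole brains, and Yp1 had 12.2, 27.7 and 16.1 CPM in sorted cells, against 70.3, 108 and 557 CPM in whole brain. Without whole brain replicate 3 they read -2.24 (adjusted p = 0.0128) for Yp1 and -2.54 (adjusted p = 0.0120) for Yp3. CG2233 had 5.93, 14.9 and 4.40 CPM in sorted cells and 22.5, 22.9 and 486 CPM in whole brain, where 1 library set its level. Its adjusted p of 0.0410 became 0.132 with the replicate block and 0.0874 without sorted replicate 1, 0.0754 without sorted replicate 2, 0.133 without sorted replicate 3, 0.142 without whole brain replicate 3.

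The 15 highest fold changes by the same rule were CG1136 (5.07), Cpr72Ec (4.97), CG1299 (4.97), CG31103 (4.89), eater (4.80), CG9717 (4.65), CG7675 (4.65), CG14275 (4.63), bw (4.62), Cad99C (4.58), mah (4.57), CG2121 (4.55), CG1561 (4.52), CG34265 (4.52) and CG6870 (4.50). Most of these genes are known here by an annotation symbol only. Among the others, eater is a hemocyte phagocytosis receptor, bw encodes a transporter subunit that carries the precursors of the red eye pigments, Cpr72Ec encodes a cuticle protein family member and Cad99C a cadherin of microvilli. CG34265 had 80.5, 30.9 and 109 CPM in sorted cells, against 3.13, 3.01 and 3.59 CPM in whole brain (log2 fold change 4.52, SE 0.50, adjusted p = 0.000751), and CG1299 had 14.3, 73.5 and 69.0 CPM in sorted cells, against 0.997, 3.25 and 0.718 CPM in whole brain (log2 fold change 4.97, SE 0.82, adjusted p = 0.00357). For most of the 15 genes sorted replicate 1 was the lowest sorted library, and eater, with 125, 52.7 and 67.6 CPM, was highest there. CG1299, CG31103, eater, CG7675, bw, mah and CG34265 kept their calls without each library. The others lost it in 1 or more fits: CG1136 (0.0742 without sorted replicate 2, 0.0528 without sorted replicate 3, 0.0580 without whole brain replicate 1, 0.0886 without whole brain replicate 3), Cpr72Ec (0.0532 without sorted replicate 2, 0.0583 without sorted replicate 3, 0.0543 without whole brain replicate 2, 0.0776 without whole brain replicate 3), CG9717 (0.0622 without whole brain replicate 2), CG14275 (0.0661 without whole brain replicate 3), Cad99C (0.0617 without sorted replicate 2, 0.0593 without sorted replicate 3, 0.0637 without whole brain replicate 1, 0.0885 without whole brain replicate 3), CG2121 (0.0547 without whole brain replicate 3), CG1561 (0.0576 without whole brain replicate 3) and CG6870 (0.0565 without whole brain replicate 3), all as adjusted p. The exons of CG1136, bw, Cad99C, CG1561 and CG6870 overlap a gene on the opposite strand.

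Several genes of eye pigment synthesis and transport, chosen after their values were seen, were higher in sorted cells. The gene bw (FBgn0000241, chromosome 2R from 23527805 to 23538499, overlapping mi on the opposite strand) had 86.8, 436 and 251 CPM in sorted cells, against 3.13, 17.6 and 10.9 CPM in whole brain (log2 fold change 4.62, SE 0.78, adjusted p = 0.00385). Its partner w, the white transporter gene, had 48.6, 138 and 111 CPM in sorted cells, against 17.1, 19.8 and 20.4 CPM in whole brain (log2 fold change 2.40, SE 0.38, adjusted p = 0.00306). The brown pigment transporter gene st had 7.65, 73.6 and 86.2 CPM in sorted cells, against 3.99, 3.97 and 0.861 CPM in whole brain (log2 fold change 4.26, SE 0.95, adjusted p = 0.0124). No sorted library of these genes overlapped a whole brain, and sorted replicate 1 was the lowest sorted library for each. Of the pteridine synthesis genes, se, which overlaps GstO2 on the opposite strand, had 26.8, 183 and 173 CPM in sorted cells, against 0.997, 12.99 and 8.18 CPM in whole brain, and Pu, which makes the first committed step, had 78.0, 499 and 310.4 CPM in sorted cells, against 27.9, 57.6 and 45.4 CPM in whole brain. Pdh, a retinoid dehydrogenase gene of pigment cells that overlaps Tcs3, had 232, 2442 and 1830.2 CPM in sorted cells, against 53.2, 162 and 76.0 CPM in whole brain (log2 fold change 3.97, SE 0.86, adjusted p = 0.0110). Calls were lost for se (0.0597 without whole brain replicate 3), Pu (0.0585 without whole brain replicate 1, 0.0533 without whole brain replicate 3) and Pdh (0.0513 without whole brain replicate 3), as adjusted p. Without sorted replicate 1 the log2 fold change was 5.03 (adjusted p = 0.00111) for bw, 2.72 (adjusted p = 0.000246) for w, 4.78 (adjusted p = 0.000692) for st, 4.60 (adjusted p = 0.00325) for se, 3.23 (adjusted p = 0.000612) for Pu and 4.48 (adjusted p = 0.000628) for Pdh.

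Within pairs of libraries from the same brains, the ratio of sorted cells to whole brain was 27.7, 24.8 and 23.0 for bw in pairs 1, 2 and 3, 28.3, 21.7 and 32.2 for CG14275, 60.0, 29.4 and 31.8 for Cpr72Ec, 2.84, 6.93 and 5.44 for w and 4.36, 15.1 and 24.1 for Pdh. In every pair sorted cells were the higher. The photoreceptor gene ninaE, the major rhodopsin, gave ratios of 0.391, 0.395 and 1.75 and Arr1 of 0.0353, 0.0686 and 0.140. Sorted cells were the lower in 2 of 3 pairs for ninaE and in all 3 for Arr1. The same genes were read in the other sorts at day 70: Pdh had 1709, 1860.1 and 1612 CPM in cells sorted with GMR56F03, against 137, 96.3 and 113 CPM in their whole brains, and 137, 295 and 764 CPM in cells sorted with GMR10E12, against 5.01, 67.1 and 32.0 CPM in theirs. The difference between astrocyte-like and ensheathing glia was not called for any of bw, w, st, se, Pu or Pdh. Whether retinal pigment cells entered the sort was not tested.

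**Figure D3:**
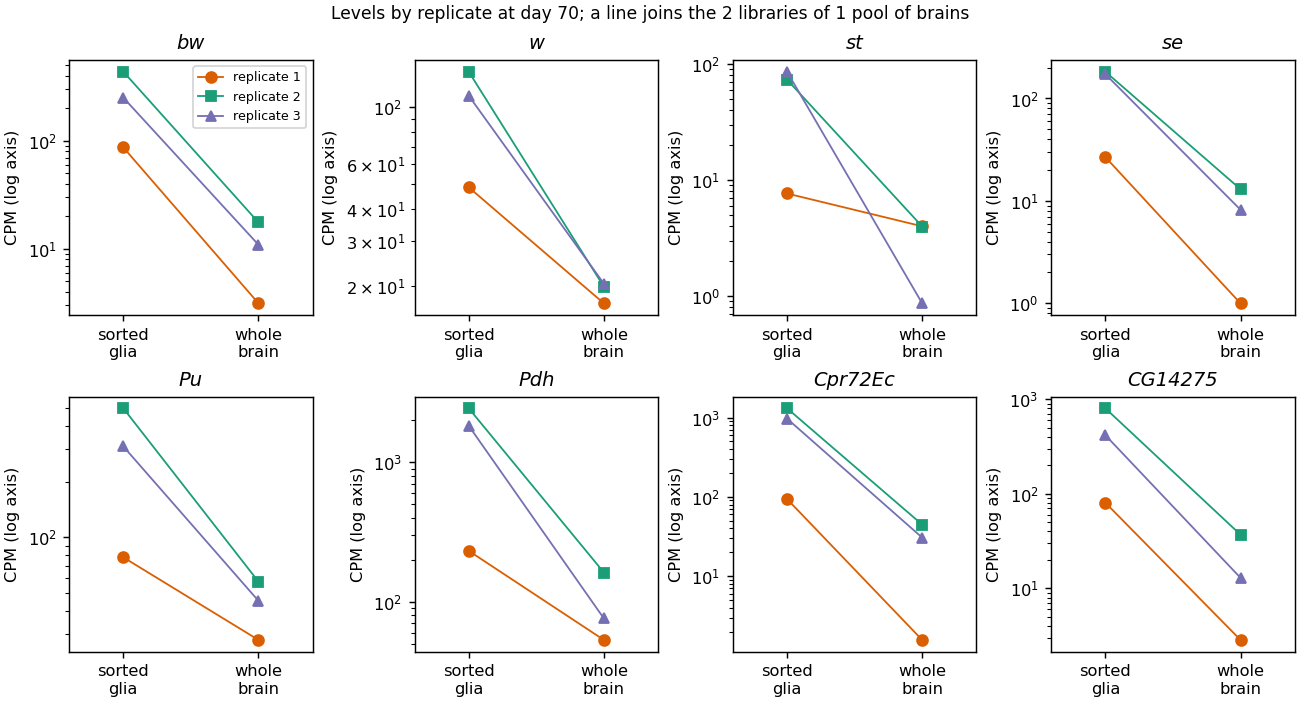
Levels of 8 genes, bw, w, st, se, Pu, Pdh, Cpr72Ec and CG14275, in CPM on a log axis. Lines join the sorted (left) and whole brain (right) libraries of the same brains. Every line falls toward whole brain, and the line of pair 1 starts lowest among the sorted libraries.

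Whether the same separation held in young flies was asked by setting the difference between sorted cells and whole brain at day 70 against that at day 5. The contrast between sorted cells and whole brain was smaller at day 70 for a part of the neuronal and basement membrane genes, 9 of 24 neuron markers and 5 of 13 basement membrane genes being called. The age difference was called higher for 278 of 9369 genes (2.97%) and lower for 123 (1.31%), with a median over all genes of 0.12 (418 higher, 81 lower and a median of 0.35 with total counts as the scale), and 1869 genes had an unadjusted p below 0.05. Higher here means that sorted cells stood higher relative to whole brain at day 70 than at day 5. The count depended on the libraries, from 843 without day 5 sorted replicate 3 to 142 and 149 without day 5 whole brain replicates 1 and 3 and 223, 154 and 128 without day 70 whole brain replicates 1, 2 and 3. With the replicate block it was 212 (153 higher and 59 lower). The list counts of the age difference, here and below, are those of the fit without the block.

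Astrocyte markers summed to 15832, 9644 and 12588 CPM in sorted cells at day 70 and 47016, 46835 and 44300.5 CPM at day 5, against whole brain sums of 2537, 1831 and 1854 CPM at day 70 and 2466, 6084 and 2918 CPM at day 5. Sorted cells were thus 6.12 times whole brain at day 70 and 12.0 times at day 5. The levels of alrm in sorted cells were 2089, 1239 and 1975 CPM at day 70 and 8529, 8836 and 7475 CPM at day 5. The age difference of alrm was -1.50 on the log2 scale and was not called (adjusted p = 0.118), nor was that of Gat (-1.05, adjusted p = 0.337). It was called for htl (-1.26, adjusted p = 0.0482) and repo (-1.36, adjusted p = 0.0399), which held in 1 and 2 of the 12 fits without 1 library and had adjusted p of 0.0570 and 0.0525 with the replicate block. The highest adjusted p were 0.133 without GMR86E01 whole brain of day 70 replicate 2 for htl and 0.110 without GMR86E01 whole brain of day 70 replicate 3 for repo. AANAT1 had 145, 126 and 133 CPM in sorted cells at day 70 and 781, 841 and 722 CPM at day 5, against 69.0, 57.7 and 54.1 CPM and 90.2, 121 and 99.4 CPM in whole brain at the same ages. Its age difference was -1.73 (SE 0.23, adjusted p = 0.00323) and kept its call in all 12 fits.

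Some neuronal genes stood closer to whole brain in the old sort than in the young one. Neuron markers summed to 5826, 4758 and 4294 CPM in sorted cells at day 70 and 1866, 1636 and 3013 CPM at day 5, with whole brain at 17122, 15361 and 14982 CPM and 18565, 16601 and 18441 CPM. The age difference was higher for 9 of 24 of these markers and lower for none, with a median of 1.58. Syt1 had 239, 217 and 213 CPM in sorted cells at day 70 and 16.0, 26.4 and 65.2 CPM at day 5, against 1019, 923 and 942 CPM and 1098, 930.1 and 1209 CPM in whole brain (2.77, SE 0.50, adjusted p = 0.0124). All 3 old sorted libraries were above the 3 young ones, and the whole brains overlapped between ages. Of the nicotinic receptor subunits, 5 of 9 were higher (median 1.90), among them nAChRalpha2 (1.73, SE 0.29, adjusted p = 0.00888) and nAChRalpha3 (2.15, SE 0.33, adjusted p = 0.00623). The modulator receptor genes Rdl (2.73) and GABA-B-R2 (1.58) and the innexin gene shakB (2.36) were higher too. Each of these 6 genes kept its call in all 12 leave-one-out fits. The share of neurons in the sorts was not measured, and its part in these values was not tested.

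Some genes of blood cells and basement membrane had a lower age difference. Hemocyte markers summed to 1494, 1216 and 1490.2 CPM in sorted cells at day 70 and 6589, 5629 and 6437 CPM at day 5, with whole brain at 188, 287 and 318 CPM and 364, 329 and 386 CPM. The age difference was lower for 2 of 8 hemocyte markers (crq and Pxn) and for 5 of 13 basement membrane genes, whose median was -1.63. Pxn is on both lists and is counted in each, and crq is on the engulfment list as well. Basement membrane genes summed to 3217, 2836 and 3399 CPM in sorted cells at day 70 and 12774, 11569.7 and 11939 CPM at day 5, with whole brain at 713, 838 and 832 CPM and 897, 1063 and 1037 CPM. Col4a1 had 441, 532 and 573 CPM in sorted cells at day 70 and 2575, 2421 and 2718 CPM at day 5, against 69.6, 81.6 and 86.6 CPM and 128, 147 and 138 CPM in whole brain (-1.49, SE 0.21, adjusted p = 0.00447). The collagen gene vkg (-1.63) and SPARC (-1.67) also kept their calls in all 12 fits. Among the chaperones, Hsp60A had an age difference of 1.47 (adjusted p = 0.00541) and Hsp70Ba of -2.17 (adjusted p = 0.00594). Lists for sugar metabolism and glutathione S-transferases had 0 and 0 members called higher and 0 and 1 called lower.

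By the rule for named genes, the 8 highest age differences were those of Capa, Tsp29Fb, AstA, ImpL2, CG8620, Ms, twz and CG31221 and the 8 lowest those of Glt, Obp83cd, Nplp2, Hug, CG7997, lncRNA:alphagamma-element:CR32865, Jabba and Dredd. Several had almost no counts in a group, so that their fitted values depend on the prior count and their levels are given in place of them. The peptide gene Capa had 202, 344 and 553 CPM in sorted cells at day 70 and 0, 0 and 0.0918 CPM at day 5, against 116, 279 and 148 CPM and 29.5, 76.6 and 822 CPM in whole brain. CG8620 had 69.1, 94.8 and 113 CPM in sorted cells at day 70 and 0, 0 and 0.0918 CPM at day 5, against 95.8, 108 and 106 CPM and 7.98, 8.40 and 5.55 CPM in whole brain. Capa and CG8620 were present in every old sorted library and nearly absent from the young ones. ImpL2, an antagonist of insulin-like peptides, had 427, 364 and 139 CPM in sorted cells at day 70 and 12.6, 13.2 and 18.7 CPM at day 5, against 38.9, 32.1 and 60.7 CPM and 65.6, 1027 and 41.4 CPM in whole brain (7.48, SE 1.46, adjusted p = 0.0166). Its young whole brains were set apart by 1 library, without which the difference was 4.65 (adjusted p = 0.00577), and the call held in 10 of 12 fits (up to 0.0600 without GMR86E01 whole brain of day 70 replicate 2). The study describes the product of Nplp2 as an exchangeable apolipoprotein. Nplp2 had 25.1, 59.0 and 29.9 CPM in sorted cells at day 70 and 1711, 1898 and 1683 CPM at day 5, against 23.2, 20.8 and 303 CPM and 59.9, 51.1 and 45.9 CPM in whole brain (-6.65, SE 1.21, adjusted p = 0.0128). Young sorted cells were far above every other library, and the difference was -4.25 (adjusted p = 0.00545) without whole brain replicate 3 of day 70. The noncoding RNA lncRNA:alphagamma-element:CR32865 (-3.07, SE 0.41, adjusted p = 0.00340) held in 12 of 12 fits and the lipid droplet protein gene Jabba (-2.77, SE 0.57, adjusted p = 0.0208), which overlaps Cyp12b2, in 8 of 12. The calls of Capa, AstA, CG8620, Ms, Glt and Nplp2 held in all 12, that of Obp83cd in 9 of 12, CG7997 in 6 of 12, twz in 5 of 12, CG31221 in 5 of 12, Tsp29Fb in 4 of 12, Hug in 4 of 12 and Dredd in 3 of 12.

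**Figure D4:**
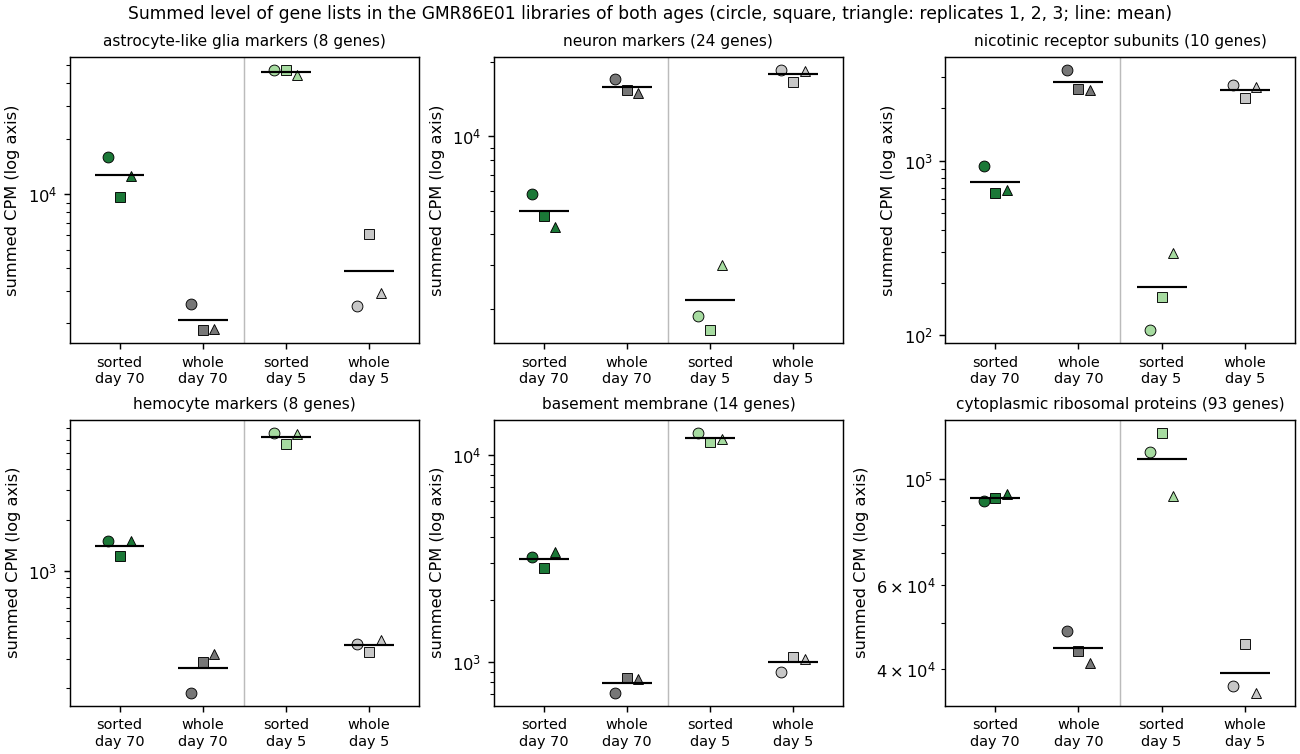
Summed CPM on a log axis of 6 gene lists in sorted old astrocyte-like glia, old whole brain, sorted young astrocyte-like glia and young whole brain, 1 point per replicate. Neuron markers and nicotinic receptor subunits lie closer to whole brain in the old sort than in the young one, as do hemocyte markers and basement membrane genes from the other side.

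What set old astrocyte-like glia apart from old ensheathing glia was asked in the same way, with each sort read against its own whole brains at day 70. Few genes were called. Of 9932 genes, 5 were called higher in astrocyte-like glia (0.0503%) and 8 lower (0.0805%), 880 had an unadjusted p below 0.05, and DESeq2 called 121. The count ran between 0 and 39 with each of the 18 libraries left out (0 without whole brain replicate 3 of GMR86E01, and 39 without whole brain replicate 1 or 2 of GMR10E12) and was 4 with the replicate block. The ensheathing whole brains were uneven: GMR10E12 replicate 1 held 912285 counts, 14.3% of them on rRNA genes, GMR10E12 replicate 3 had 11.5% there, and GMR56F03 replicate 2 held 1129952 counts. Without these libraries in turn 39, 16 and 1 genes were called. Of the astrocyte markers none was called. The difference was 1.44 for alrm (adjusted p = 0.0551), 1.43 for Gat (adjusted p = 0.0757) and 1.21 for htl (adjusted p = 0.0757), and the list median was 1.32 against 0.03 over all genes. In sorted cells alrm had 2089, 1239 and 1975 CPM with GMR86E01, against 699.6, 768 and 780.1 CPM with GMR56F03 and 741, 959 and 675 CPM with GMR10E12.

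The fate gene pros was higher in astrocyte-like glia. It had 1345, 777 and 742 CPM in cells sorted with GMR86E01, against 505, 518 and 496 CPM with GMR56F03 and 272, 178 and 196 CPM with GMR10E12 (1.67, SE 0.29, adjusted p = 0.0269). Their whole brains had 2793, 2023 and 1589.8 CPM, 2323, 2451 and 2369.8 CPM and 2446, 1936 and 2643 CPM, so that pros was under whole brain in every sort and least so in astrocyte-like glia. CG42342 (1.66, SE 0.28, adjusted p = 0.0261, and adjusted p 0.0620 with the replicate block) and the noncoding RNA lncRNA:noe (1.45, SE 0.24, adjusted p = 0.0261) were the other higher genes named by the rule. The calls of pros, CG42342 and lncRNA:noe held in 10 of 18, 9 of 18 and 10 of 18 fits. Their adjusted p went up to 0.127 without GMR86E01 whole brain of day 70 replicate 2, 0.110 without GMR86E01 whole brain of day 70 replicate 3 and 0.106 without GMR86E01 whole brain of day 70 replicate 2.

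Transporters led the lower genes. NKCC (FBgn0051547, chromosome 3R from 5489505 to 5502702), a sodium-potassium-chloride cotransporter, had 3.44, 10.5 and 3.90 CPM in astrocyte-like glia, against 13.8, 20.3 and 10.6 CPM with GMR56F03 and 377, 352 and 453 CPM with GMR10E12 (-3.65, SE 0.53, adjusted p = 0.0187). Whole brains had 44.6, 15.3 and 32.9 CPM, 25.3, 12.0 and 30.1 CPM and 42.6, 51.1 and 34.4 CPM. The high level was that of GMR10E12 alone, and the block gave an adjusted p of 0.0715. The neprilysin peptidase gene Nep2 had 14.5, 9.87 and 22.6 CPM in astrocyte-like glia, against 174, 179.5 and 135 CPM with GMR56F03 and 19.2, 15.6 and 11.7 CPM with GMR10E12 (-1.93, SE 0.35, adjusted p = 0.0376, and 0.0932 with the block). Here GMR56F03 alone was high, and neither gene was high in both ensheathing lines. The ABC transporter gene CG10226 had 8.99, 3.95 and 4.12 CPM in astrocyte-like glia, against 6.54, 12.9 and 4.20 CPM with GMR56F03 and 245, 327 and 305 CPM with GMR10E12 (-2.88, SE 0.49, adjusted p = 0.0261, and 0.0747 with the block). Its high level too was that of GMR10E12 alone. Surface glia markers summed to 4352, 5578 and 5426 CPM in cells sorted with GMR10E12, against 411, 501 and 427 CPM in their whole brains. These sums were 425, 1001 and 819 CPM in astrocyte-like glia and 759, 883 and 709 CPM with GMR56F03. The part of surface glia in these differences was not tested. The vesicular monoamine transporter gene Vmat, which overlaps CG13330 on the opposite strand, had 154, 394 and 101 CPM in astrocyte-like glia, against 2275, 1766 and 1713 CPM with GMR56F03 and 698, 971 and 876 CPM with GMR10E12 (-2.89, SE 0.44, adjusted p = 0.0187). The gene lama (-2.14, SE 0.40, adjusted p = 0.0381, and 0.162 with the block) was the last of the lower genes named by the rule. Calls held in 16 of 18 fits for NKCC, 15 of 18 for Vmat, 10 of 18 for CG10226, 5 of 18 for Nep2 and 4 of 18 for lama. The highest adjusted p was 0.0525 without sorted astrocyte-like glia of day 70 replicate 1 for NKCC, 0.0727 without sorted astrocyte-like glia of day 70 replicate 1 for Vmat, 0.110 without GMR86E01 whole brain of day 70 replicate 3 for CG10226, 0.127 without GMR86E01 whole brain of day 70 replicate 3 for Nep2 and 0.106 without GMR86E01 whole brain of day 70 replicate 2 for lama.

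**Figure D5:**
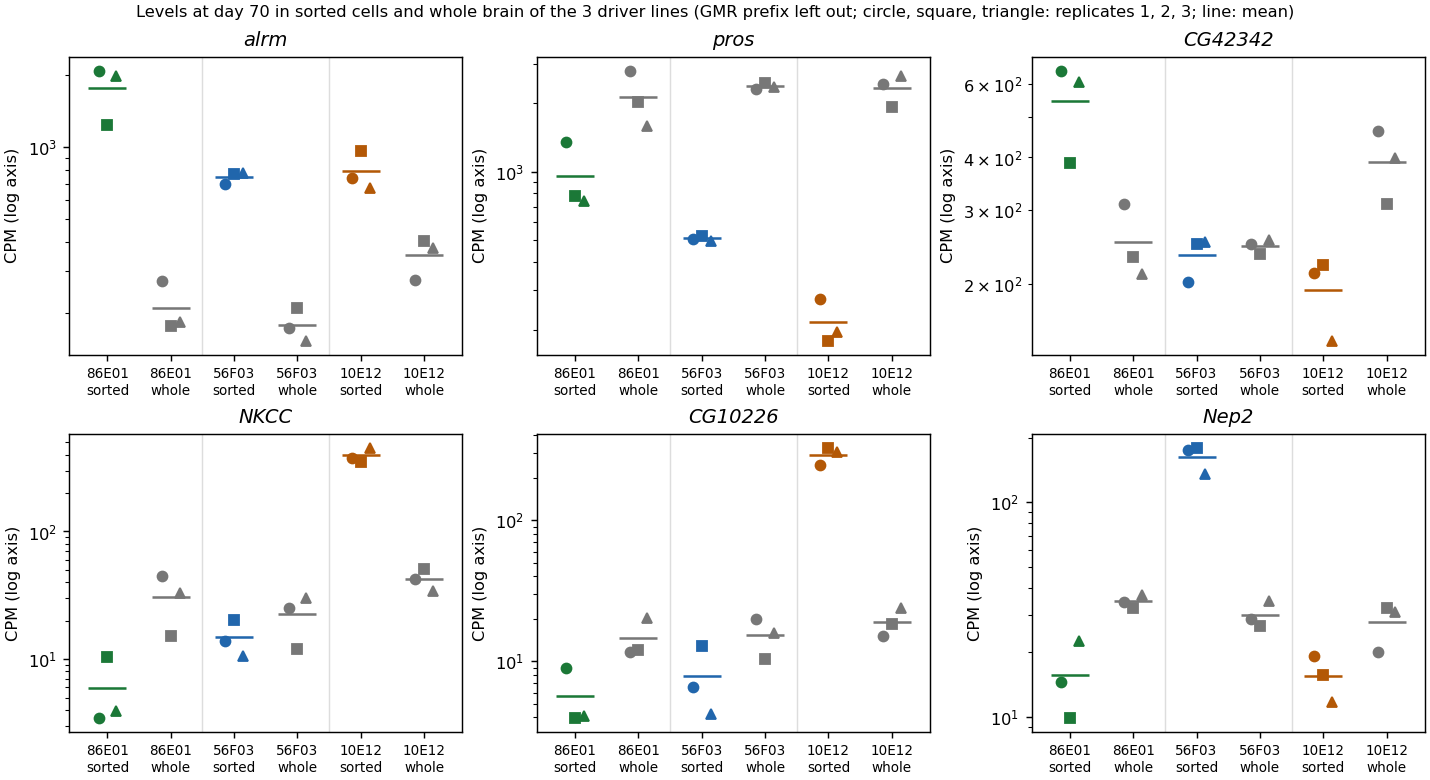
Levels of alrm, pros, CG42342, NKCC, CG10226 and Nep2 in CPM on a log axis, in sorted cells and whole brain of GMR86E01 (astrocyte-like), GMR56F03 and GMR10E12 (ensheathing) at day 70, 1 point per replicate. NKCC is high in cells sorted with GMR10E12 and Nep2 in those sorted with GMR56F03, and pros is highest among sorted cells in GMR86E01.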

How the data were processed

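Polyadenylated RNA of 36 fly brain libraries was copied by the Smart-seq3 protocol, and the 6 libraries of GMR86E01 at day 70 were compared here. The authors aligned paired reads to dm6 with STAR 2.7.3a, removed unmapped and improperly paired reads and deposited raw counts of 17562 FlyBase genes, made with summarizeOverlaps (union mode, in which a read that overlaps more than 1 gene is dropped). Use of strand and of molecular identifiers in counting is not given in the sources used here. Positions are those of Ensembl release 115 (dm6), to which 17500 genes matched.

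Log2 fold changes of sorted cells over whole brain were fitted to these counts with edgeR 4.0.16 under R 4.3.3 (TMM, its filter on low counts, two-sided quasi-likelihood test, Benjamini-Hochberg, called at an adjusted p below 0.05). Standard errors (SE) are the log2 fold change over the square root of F. CPM were scaled by TMM over all 36 libraries. Age and glia differences are interactions fitted on 12 and 18 libraries. Replicate numbers pair sorted and whole brain libraries of the same brains. Deviations of same-numbered libraries from their group means correlated at 0.241, 0.176 and 0.0975, and those of other numbers at -0.193 to 0.0467, over 8893 genes, and the fit with the replicate block called 2735 genes. Replicates are pools of brains, so p-values measure the spread between pools.

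Named genes were the 15 highest and 15 lowest called fold changes without overlap between groups and with at least 50 CPM in the higher group (8 and 8 in each difference, with no condition on overlap), and members of 31 gene lists. Members and lists were chosen with earlier results of these data known. The alternatives were DESeq2 1.42.0 and its size factors, total counts, no filter, 10 counts in every library, thinned counts, 1 fit over all libraries, the replicate block, and each library left out. The fits were tested on simulated data. Exons of 59 of the 198 named genes overlap another gene's, and reads there are uncertain.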

Additional observations from a re-analysis of the deposited data

Results flagged for a closer look

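Each gene here was marked because its difference between sorted cells and whole brain was not the same in 2 settings, by the edgeR quasi-likelihood test of that difference, adjusted over all genes after Benjamini and Hochberg. Values are differences on the log2 scale, and no explanation of them was tested.

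Sorted cells stood higher relative to whole brain at day 70 than at day 5 for Syt1 (2.77), para (2.15), Gdh (1.26), Gs1 (1.08), GABA-B-R2 (1.58), Rdl (2.73), kcc (0.92), nrv3 (3.13), shakB (2.36), Hsp60A (1.47), Capa (12.93), AstA (7.51), nAChRalpha2 (1.73), Tsp29Fb (8.99), ImpL2 (7.48), CG8620 (6.35), twz (4.07), CG31221 (3.75), nAChRalpha3 (2.15), Ms (5.48). Genes known from neurons, such as Syt1, para, nrv3 and shakB, are among them. The fitted values of Capa, AstA and CG8620 rest on groups with almost no counts and depend on the prior count. The calls of Tsp29Fb, twz and CG31221 were lost in most fits that left out a library.

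Sorted cells stood lower relative to whole brain at day 70 than at day 5 for htl (-1.26), repo (-1.36), drpr (-0.94), crq (-1.31), Pxn (-1.87), AANAT1 (-1.73), mbc (-1.62), Lsd-2 (-1.31), LpR2 (-1.24), Nplp2 (-6.65), Hsp70Ba (-2.17), Hug (-6.61), Col4a1 (-1.49), vkg (-1.63), SPARC (-1.67), LanB2 (-2.49), Glt (-8.77), Obp83cd (-7.75), CG7997 (-3.07), lncRNA:alphagamma-element:CR32865 (-3.07), Jabba (-2.77), Dredd (-2.75), CG42342 (-1.92). Among them are genes of basement membrane (Col4a1, vkg, LanB2, SPARC), of engulfment (drpr, mbc) and of lipid droplets (Lsd-2, Jabba). The fitted values of Glt, Obp83cd and Hug depend on the prior count. The calls of htl, repo, Hug and Dredd were lost in most fits that left out a library, and those of htl and repo also with the replicate block.

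At day 70, the named genes that differed between astrocyte-like and ensheathing glia, each against its own whole brain, were Vmat (-2.89), pros (1.67), CG42342 (1.66), lncRNA:noe (1.45), NKCC (-3.65), CG10226 (-2.88), lama (-2.14) and Nep2 (-1.93), where a positive value is higher in astrocyte-like glia. NKCC and CG10226 were high in cells sorted with GMR10E12 alone and Nep2 in those sorted with GMR56F03 alone. The calls of lama and Nep2 were lost in most fits that left out a library.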

How the results depend on the processing

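Among all genes, the count of 2852 called between sorted cells and whole brain was 2735 with the replicate block and stayed within 1.5 times of 2852 under each other scale, filter and test run, and between 1885 and 3578 with each library left out. The age difference of 401 genes became 870 with DESeq2 and 212 with the replicate block, and ran between 128 and 843 with each library left out. The difference between glia of 13 genes became 35 with a minimum of 10 counts in every library, 35 without a filter, 121 with DESeq2 and 4 with the replicate block, and ran between 0 and 39. The cause was not tested. In the comparison at day 70, the replicate block changed calls among genes named singly for Oct-TyrR, Gad1, Vmat, DptB, AttD, Capa and CG2233. Calls of other list members changed too. The lower count went from 9 to 12 for neuropeptide precursors and from 25 to 27 for dpr and DIP genes. The higher count went from 2 to 4 for surface glia markers and from 19 to 18 for glutathione S-transferases.

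Fold changes that turned in sign belonged to genes that had not passed: with each library left out, the log2 fold change ran for Pxn between -0.45 and 0.11, ninaE between -1.09 and 0.83, Nplp2 between -2.08 and 0.80, Dh31 between -2.04 and 1.14 (-0.86 with the replicate block), SIFa between -6.57 and 2.26 (-3.78 with the replicate block), CG8620 between -0.31 and 0.037, CG7997 between -0.36 and 0.37, lama between -0.56 and 0.035 and Pdf between -2.79 and 1.04 (-1.37 with the replicate block). Sorted replicate 1 was the shallowest of the 6 libraries, and counts thinned to its total called 2843 genes. With 3 libraries a group, and replicates that are pools of brains, p-values measure the spread between pools. If strand was not used in counting, reads in exons shared by genes on opposite strands were dropped, and the counts of those genes leave them out.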

Other observations

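The genes bw, Cpr72Ec and CG1561, among the 15 highest fold changes of the old sort and chosen after their values were seen, were also read in the young one. At day 5, bw had 7.59, 85.2 and 44.2 CPM in sorted cells, against 0.0887, 1.05 and 0.676 CPM in whole brain (log2 fold change 6.58, adjusted p = 0.00313). Cpr72Ec had 44.7, 444 and 149 CPM in sorted cells, against 0.621, 2.80 and 3.52 CPM in whole brain (log2 fold change 6.66, adjusted p = 0.00223) at that age, and CG1561 had 107, 1529.7 and 1156 CPM in sorted cells, against 6.39, 15.7 and 21.8 CPM in whole brain (log2 fold change 6.04, adjusted p = 0.00331). The levels of CG1561 at day 70 were 340.1, 3339 and 2209 CPM in sorted cells and 16.9, 154 and 89.6 CPM in whole brain. Sorted cells were above whole brain at both ages for these genes, and their age differences were not called (adjusted p = 0.465, 0.632 and 0.605).

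Cytoplasmic ribosomal protein genes were read in the same way. At day 5, 82 of 84 were higher in sorted cells and none was lower, with a median log2 fold change of 1.60. Their mean sum in sorted cells was 2.06 times that of whole brain at day 70 and 2.81 times at day 5.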
